A study of Mus musculus with 120 samples.

Results

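Bifidobacterium was followed through the bacterial 16S rRNA gene profiles of mouse cecal and colonic contents. Its members were all amplicon sequence variants (distinct read sequences) to which the authors' taxonomy gave this genus, which were 22 of the 13844 variants of the table. They held 14551 of 7648060 counts, or 0.190%, and at least 1 of them was counted in 101 of 120 libraries. The species label was unclassified for all 22 variants, so they are named here Bif1 to Bif22 in the order of their total counts.

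The mice were C57BL/6N, 10 weeks old, acclimatised for 7 days, housed 1 to a cage and then held for 42 days. Antibiotic-treated mice (ABX) drank a broad-spectrum cocktail, whose agents the labels do not list, and ate the same sterilised feed as chow mice (CD). Within each diet, mice lived under daily light of 0 h (LD0/24), 8 h (LD8/16), 12 h (LD12/12), 16 h (LD16/8) or 24 h (LD24/0), from an LED strip of 150 to 200 lx. The design names 240 mice, 24 for each diet and light cycle, and the 120 libraries comprised 30 from the cecum on antibiotics, 31 from the cecum on chow, 29 from the colon on antibiotics and 30 from the colon on chow. Each of the 20 groups had 6 libraries, apart from 5 in the colon on antibiotics under LD8/16 and 7 in the cecum on chow under LD8/16. The labels number the libraries of a group but do not say whether each came from 1 mouse, so p-values measure the spread between these libraries. The extraction text in the labels speaks of rumen digesta, while each sample is labelled as colonic or cecal content of a mouse.

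Bifidobacteria are anaerobic, Gram-positive Actinobacteriota that ferment plant, milk and mucin sugars through their own phosphoketolase pathway, the bifid shunt, to acetate and lactate. Butyrate-forming Clostridia can use both products, which is known as cross-feeding. Some species live in the guts of rodents and other animals and others chiefly in humans, and short stretches of the 16S gene often do not separate close species.

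Total counts ranged from 39157 to 73076 per library, with a mean of 63733.8. A count of 0 therefore allowed a share of up to 0.00433% to 0.00766% in the 19 libraries where no member was counted. A share of counts cannot tell fewer bifidobacteria from more of all other bacteria. The reads carry no molecular identifiers, so intervals and such limits cover counting error only. Earlier work on these data had found 10 genera, among them Weissella, Neisseria, Haemophilus and Lactiplantibacillus, at even low levels in blocks of libraries across group boundaries, and their summed share is given beside results as the background genera. They made up 1.47% ± 0.513 of counts in the cecum on antibiotics and 0.0270% ± 0.0266 in the chow cecum, and 2.69% ± 0.468 in the colon on antibiotics and 2.14% ± 0.582 in the colon on chow (SD over libraries). 3 libraries stood apart in lacking the background genera of their group and also had no Bifidobacterium count, namely replicates 5 and 6 of LD24/0 in the cecum on antibiotics and replicate 5 of LD24/0 in the colon on chow. Tests that hold these 3 libraries were refitted without them, an alternative chosen after the values were seen. No variant call changed in these refits, and other calls that changed are given beside their result.

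The variants were sorted by how far their counts lay in few libraries. Spread variants were defined as those counted in at least 12 libraries with under 50% of their counts in their top 3 libraries, and concentrated variants as those reaching 0.1% of counts in a library with at least 50% of their counts in the top 3. These classes are a description and were not tested. Bif1, Bif2 and Bif8 were spread and held 60.02% of the genus counts. Bif3, Bif4, Bif6 and Bif11 were concentrated and held 33.3%, and the other 15 variants held 6.67%.

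Bif1 was the most counted variant, with 4724 counts in 52 libraries and at most 0.433% of a library. Bif2 was the most widespread, with 3835 counts in 86 libraries and at most 0.328%. Their top 3 libraries held only 13.6% and 14.4% of their counts. Bif8 was much rarer, with 175 counts in 15 libraries, never above 0.0288%, and 32.0% of them in 3 libraries.

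Bif3 had 2809 counts in 29 libraries, and 78.8% of them lay in 3 of these. Its highest count was 1589, in replicate 1 of LD12/12 in the colon on antibiotics, where it made up 85.9% of the genus. Replicate 4 of the same group had 371 counts, and the next library, replicate 1 of LD12/12 in the cecum on chow, had 254 (0.348%). Nearly as high was replicate 4 of LD8/16 in the cecum on antibiotics, with 188 counts (0.303%). The 4 highest libraries thus came from both diets and both sites, 3 of them under LD12/12 and 1 under LD8/16.

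Bif4 had 1606 counts in 23 libraries, with 68.2% in its top 3. It reached 614 counts in replicate 4 of LD0/24 in the colon on chow, where it made up 88.1% of the genus, and 398 in replicate 1 of LD24/0 in the cecum on chow, where it made up 90.05%. The third library had 83 counts. Bif4 was counted in 3 of 59 libraries on antibiotics and in 20 of 61 on chow.

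Bif6 and Bif11 were the smaller concentrated variants. Bif6 had 315 counts in 10 libraries and 52.4% of them in its top 3, and Bif11 had 117 counts in 4 libraries and 96.6% in its top 3. Bif6 was just inside the line of 50%, and Bif11, at 0.104% of a library, just inside that of 0.1%. Bif10, with a maximum of 0.0930%, lay just outside the concentrated class. Bif7, counted in 12 libraries with 51.3% in its top 3, lay just outside the spread class. Bif5, with a maximum of 0.0942%, had 44.7% of its counts in its top 3. It was counted in 9 libraries, under the 12 of the spread class.

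The tail was made of variants seen in very few libraries. 8 variants were counted in 1 library each, 3 in 2 libraries, and 13 of the 22 in under 5. Only Bif1 to Bif4 were counted in all 4 combinations of site and diet. A library held at most 7 variants. Of the 101 libraries with counts, a spread variant led in 72, a concentrated one in 25 and another in 4.

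**Figure D1:**
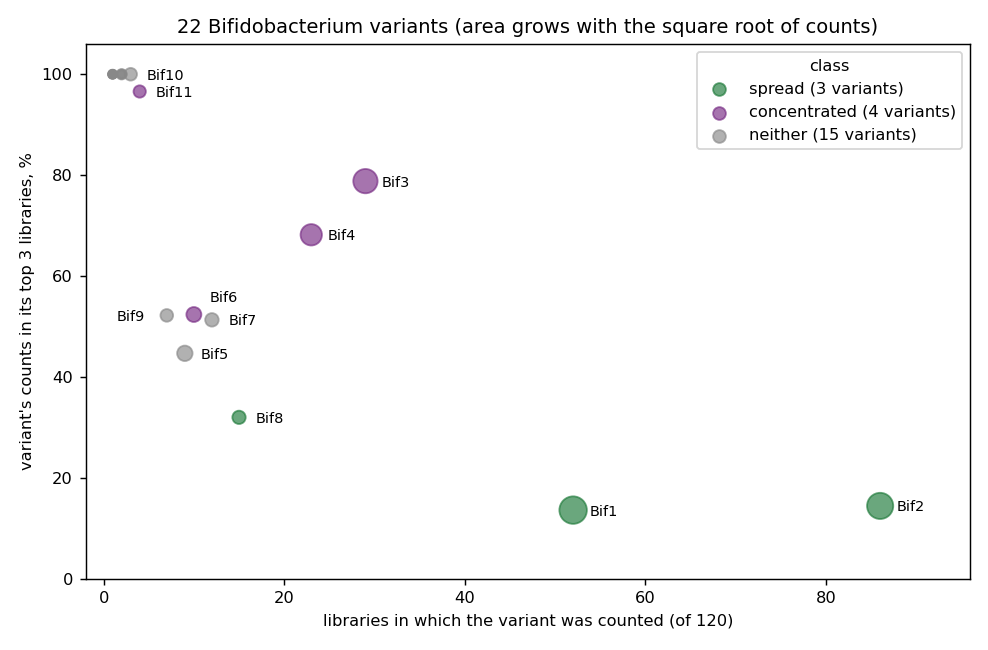
Each point is 1 of the 22 Bifidobacterium variants, with the number of libraries in which it was counted on the x axis and the percent of its counts in its top 3 libraries on the y axis. Bif1 and Bif2 lie at the lower right, counted in 52 and 86 libraries, while Bif3 and Bif4 reach 78.8% and 68.2% of counts in 3 libraries.

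**Figure D2:**
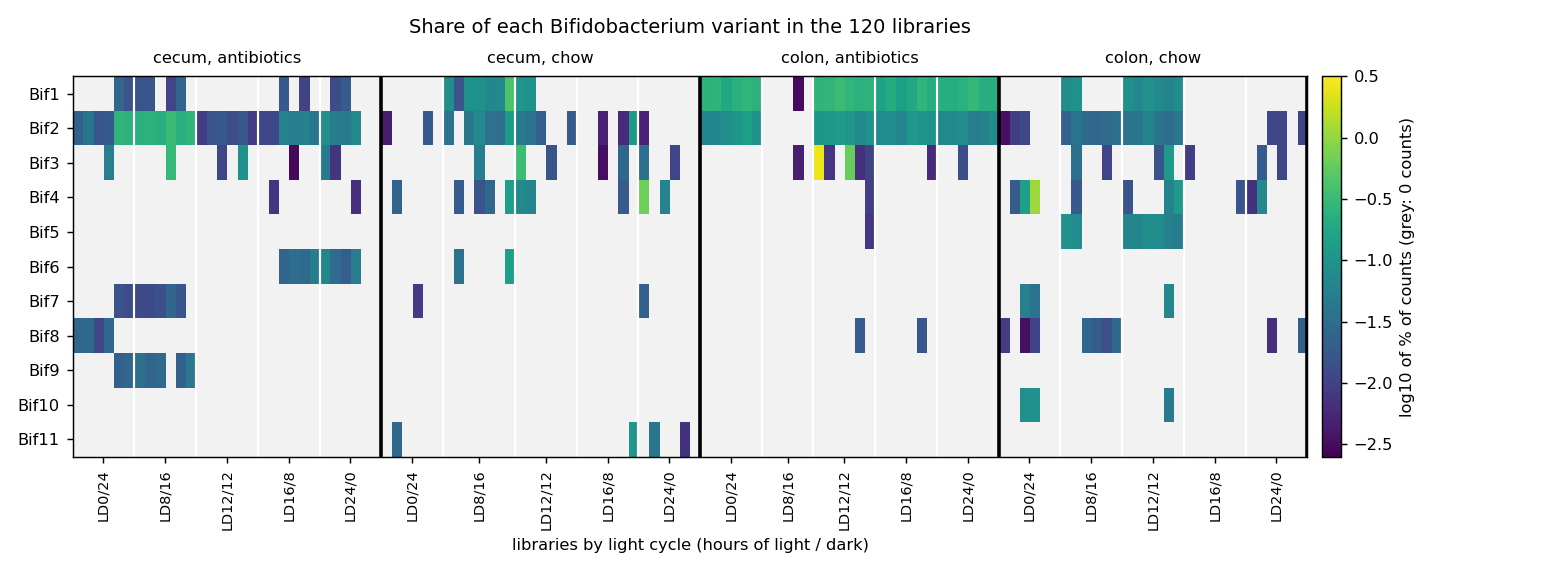
Share of the 11 most counted variants in each of 120 libraries, as the log10 of the percent of counts, with grey for 0 counts and libraries ordered by site, diet, light cycle and replicate. Bif1 and Bif2 are counted in the most libraries, Bif4 lies mostly in chow libraries, and Bif6, Bif7 and Bif9 form short bands in the cecum on antibiotics.

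Antibiotics were set against chow at each site, to ask whether the share of the genus differed. In the colon Bifidobacterium averaged 0.386% ± 0.544 on antibiotics (SD, n = 29) and 0.135% ± 0.239 on chow (SD, n = 30). The medians were 0.313% on antibiotics and 0.0403% on chow, with highest libraries of 3.04% and 1.22%. The ranges overlapped, since 4 of 29 antibiotics libraries and 7 of 30 chow libraries had no count and 1 antibiotics library exceeded the chow maximum. Under LD8/16 the order was the opposite, with every antibiotics library (0 to 0.00756%) below every chow library (0.0468% to 0.272%). Over all light cycles the genus was higher on antibiotics by a fitted 1.90 ± 0.80 (log2, SE, within light cycles, edgeR adjusted p = 0.0267). That was in a table where 81% of 258 genera passed the threshold of 0.05, 16.7% higher and 64.3% lower, with a median log2 fold change of -3.62 over all genera, so the genus moved against most of the community. Scaling by TMMwsp composition factors raised that median by 1.31 and gave 80 genera higher and 145 lower, against 43 and 166, and the genus kept its direction and its call at 3.98. Without the library at 3.04%, replicate 1 of LD12/12, the antibiotics mean was 0.292% and the log2 fold change of 1.62 did not pass (adjusted p = 0.0644). With the background share as a covariate it was 1.69 and did not pass either (adjusted p = 0.0634). Without the library that lacked the background genera the log2 fold change was 1.77 (adjusted p = 0.0409). With sets of libraries that share background variants as a block it was -0.07 (adjusted p = 1), a value that rests on 2 chow libraries, as described further on.

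In the cecum the genus averaged 0.140% ± 0.154 on antibiotics (SD, n = 30) and 0.121% ± 0.216 on chow (SD, n = 31). The median was 0.0957% on antibiotics and 0.0220% on chow, and the highest libraries were 0.698% and 0.887%. The 2 ranges covered nearly the same span. The difference did not pass the test, with a log2 fold change of 0.26 ± 0.68 (edgeR adjusted p = 0.717), at a site where 91.4% of 255 genera passed, 33.3% higher and 58% lower. Leaving out the 2 libraries without background genera gave 0.43. The result depended on the method, since limma on centred log-ratios called the genus higher (1.97, adjusted p = 0.00300) and the background share as a covariate called it lower (-4.30, adjusted p = 0.00142). The diet effect in the cecum minus that in the colon was -1.76 ± 0.94 on the log2 scale (adjusted p = 0.130, or -1.53 and adjusted p = 0.195 without the 3 libraries), and 42.9% of genera passed this interaction test. It passed with TMMwsp factors (-4.50, adjusted p = 3.81e-05), DESeq2 (-2.89, adjusted p = 0.0019) and the background covariate (-5.93, adjusted p = 1.53e-04).

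In the spread share of the genus the diets also stood apart. Spread variants held 71.8% of the genus counts in the cecum on antibiotics and 44.7% on chow, and 70.4% in the colon on antibiotics and 32.8% on chow. Concentrated variants held 19.7% in the cecum on antibiotics and 52.0% on chow, and 28.9% in the colon on antibiotics and 42.3% on chow. Single libraries set much of this in the colon: without replicate 1 of LD12/12 on antibiotics and replicate 4 of LD0/24 on chow, concentrated variants held 8.06% on antibiotics and 24.2% on chow, and spread variants 91.6% and 45.4%. These shares are of summed counts and were not tested. 14 variants were counted on antibiotics and 18 on chow, with 10 on both, 4 on antibiotics only and 8 on chow only.

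**Figure D3:**
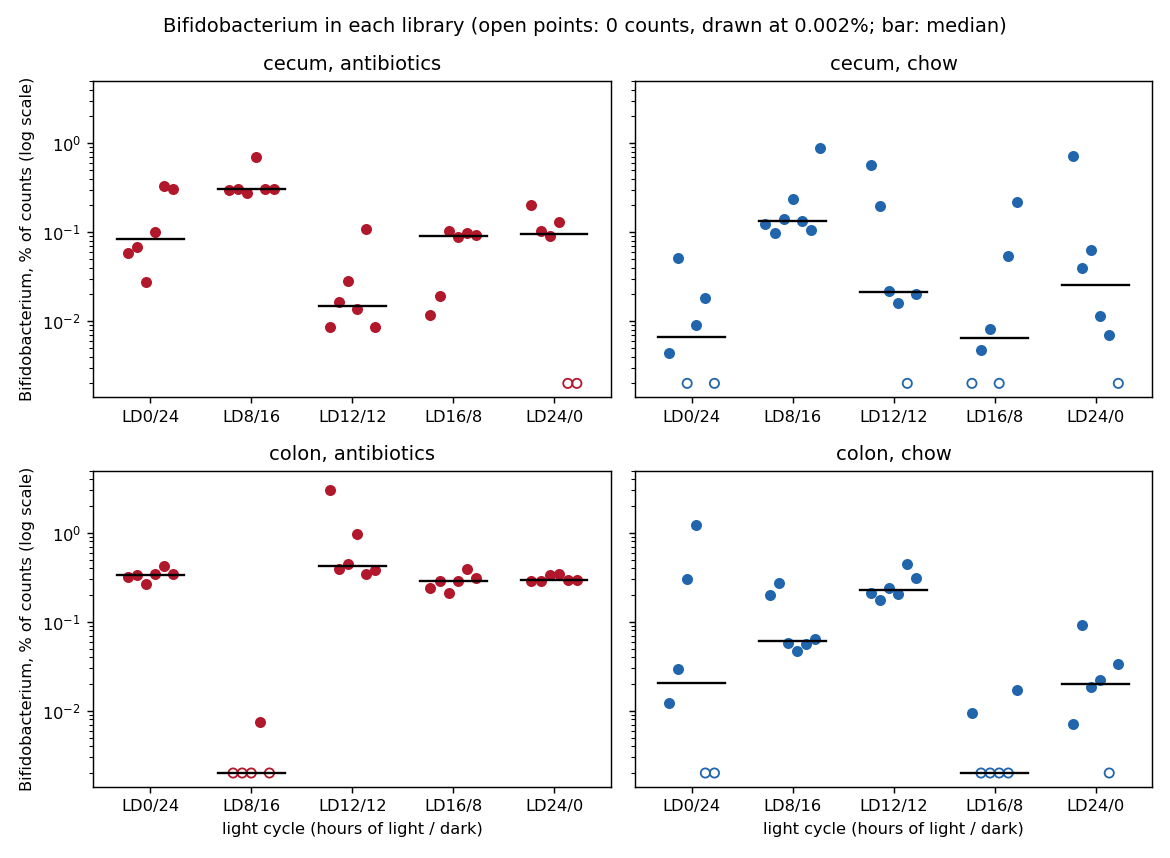
Percent of counts assigned to Bifidobacterium in each of 120 libraries (log axis), by light cycle, in 4 panels for site and diet, with bars at the medians and open points for libraries with 0 counts. In the colon on antibiotics 4 light cycles lie near 0.3% and LD8/16 at 0 but for 1 library at 0.00756%, while in the cecum on antibiotics LD8/16 has the highest median, 0.303%.

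Single variants moved in opposite directions between the diets. In the colon, 4 of the 6 variants with enough counts to test passed, 2 higher and 2 lower, where 87.1% of all variants tested passed, 10.1% higher and 76.9% lower. Bif1 and Bif2, both spread variants, were higher on antibiotics, while Bif4 and Bif5 were lower. The members' share of calls was thus near or below that of the whole table, while calls in the higher direction were 2 of 6.

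Bif1 in the colon was counted in 25 of 29 antibiotics libraries, with a median of 0.237% and a maximum of 0.326% where counted, and in 8 of 30 chow libraries, at 0.0633% to 0.0994%. In 24 antibiotics libraries it exceeded every chow library. Its fitted log2 fold change was 7.17 ± 1.46 (edgeR adjusted p = 9.22e-06), and the pooled counts differed 8.86-fold, since the fit compares diets within light cycles in 3 of which no chow library held Bif1. Bif2 was counted in 24 antibiotics and 18 chow libraries of the colon, with medians where counted of 0.0841% and 0.0298%. It was higher on antibiotics by 3.24 ± 1.02 (adjusted p = 0.00265), and 22 antibiotics libraries exceeded every chow library. For both variants the pooled counts under LD8/16 were instead higher on chow. There Bif2 had 15 to 24 counts in all 6 chow libraries and none on antibiotics. Bif1 had 114 counts in 2 chow libraries and at most 0.00303% of an antibiotics library.

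Bif4 and Bif5 went the other way in the colon. Bif4 had 6 counts in 1 antibiotics library and 902 in 10 chow libraries, and was lower by a log2 fold change of -5.50 ± 0.95 (edgeR adjusted p = 4.71e-07). Bif5 had 5 counts in 1 antibiotics library and 362 in 8 chow libraries, where it made up 0.0525% to 0.0942%, and was lower by -2.82 ± 0.76 (adjusted p = 6.22e-04). All 8 of these chow libraries were under LD8/16 or LD12/12. Bif4 and Bif5 met the count filter only with chow libraries, which favoured a call in the lower direction. Bif8 (-2.004 ± 1.33, adjusted p = 0.153) and Bif3 (-0.21 ± 0.81, adjusted p = 0.822) did not pass. For Bif3 the pooled counts, 1991 on antibiotics and 137 on chow, ran opposite to the fitted value, and 1589 of them came from 1 library.

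In the cecum 4 of 7 tested variants passed, where 95% of all variants did, 23.6% higher and 71.4% lower. Bif2 was again higher on antibiotics, by 2.52 ± 0.93 (edgeR adjusted p = 0.00884). It was counted in 28 of 30 antibiotics libraries with a median of 0.0501% where counted, against 16 of 31 chow libraries with a median of 0.0345%, and 8 antibiotics libraries exceeded every chow library. Bif6, with 204 counts in 8 antibiotics libraries and 111 in 2 chow libraries, was higher by 2.14 ± 0.89 (adjusted p = 0.0209), although the highest Bif6 library was on chow. Bif9 had 136 counts in 7 antibiotics libraries and none on chow, which makes it at least 45.8-fold higher (adjusted p = 9.78e-05, with 3 counts as the limit over the chow libraries). Bif9 had enough counts to test only through antibiotics libraries, so a call could only be in the higher direction. Bif6 too met the count filter only with antibiotics libraries, which favoured that direction. Bif4 had 9 counts in 2 antibiotics libraries and 689 in 10 chow libraries, and was lower by -5.46 ± 1.09 (adjusted p = 6.43e-06), with each of those 10 chow libraries above every antibiotics library.

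Bif1 in the cecum gave different answers by pooled share and by fit. It was counted in 10 antibiotics libraries at 0.0110% to 0.0263% and in 9 chow libraries at 0.0164% to 0.433%, and 8 of these chow libraries lay above every antibiotics library. The pooled share on antibiotics was 0.173 times that on chow, whereas the value fitted within light cycles was positive and did not pass (1.95 ± 1.24, adjusted p = 0.125). With TMMwsp factors it passed as higher (2.90, adjusted p = 0.0489). Bif7 (0.89 ± 0.89, adjusted p = 0.333) and Bif3 (0.57 ± 1.31, adjusted p = 0.670) did not pass either. Bif2 and Bif4 were thus called in the same direction at both sites. Bif4 met the count filter at either site only with chow libraries, which favoured a lower call in advance.

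The ratio of Bif2 to Bif1 set the cecum on antibiotics apart. Bif1 came with Bif2 in 50 of its 52 libraries. In libraries with both, Bif2 had 2.43 to 29.1 times the counts of Bif1 in the cecum on antibiotics (10 libraries) and 0.281 to 0.825 times in the cecum on chow (8 libraries). In the colon it had 0.175 to 0.651 times on antibiotics (24 libraries) and 0.278 to 0.661 times on chow (8 libraries). The range of the cecum on antibiotics therefore did not overlap the other 3, which overlapped each other. This ratio was chosen after the values were seen and was not tested.

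**Figure D4:**
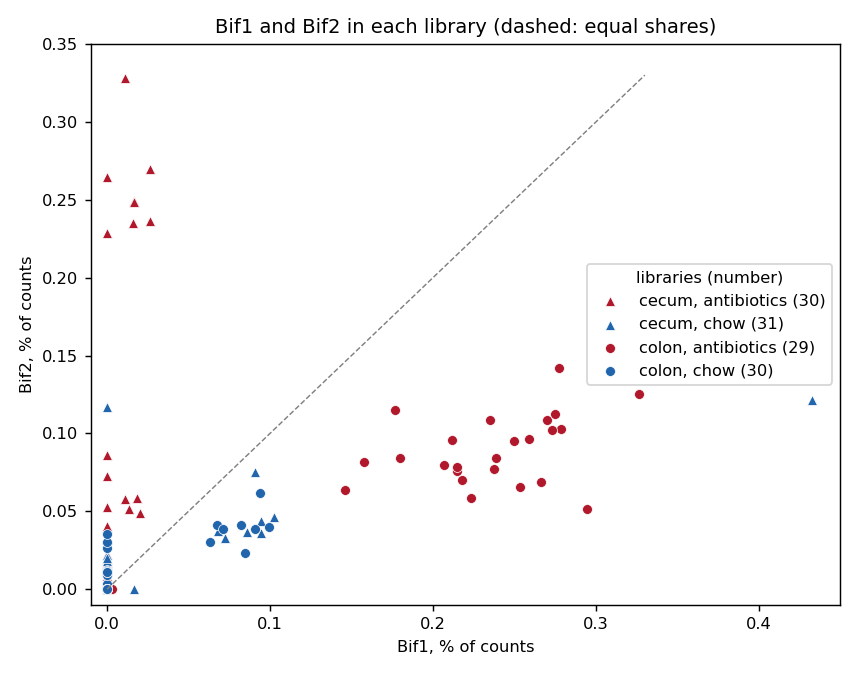
Percent of counts of Bif2 (y axis) against Bif1 (x axis) in each of 120 libraries, with a dashed line of equal shares, triangles for cecum and circles for colon, red for antibiotics and blue for chow. Cecum libraries on antibiotics lie above the line, and colon libraries with both variants lie below it on either diet.

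The comparison of sites asked whether cecum and colon differed within a diet. On chow the genus did not pass, with a log2 fold change of cecum over colon of 0.59 ± 0.85 (edgeR adjusted p = 0.636, or 0.47 without the library lacking background genera), where 43.4% of genera passed, or 37 as higher (13.6%) and 81 as lower (29.8%). With TMMwsp factors, which raised the median of all genera by 0.741, 77 genera were higher and 74 lower, and Bifidobacterium passed as higher in the cecum (2.21, adjusted p = 0.0435). The means were 0.121% in the cecum and 0.135% in the colon, against an SD of 0.216 and 0.239. On antibiotics the genus was lower in the cecum, with means of 0.140% in the cecum and 0.386% in the colon. The log2 fold change was -1.66 ± 0.66 (adjusted p = 0.0323, or -1.50 and adjusted p = 0.0420 without the 2 cecum libraries), where 46% of genera passed, with 26% above and 20% below the colon. With TMMwsp factors 53 genera were higher and 61 lower, against 56 and 43, and the genus was lower by -2.08. The call was lost without any 1 of replicates 2, 3, 4 and 6 of LD12/12 in the cecum, with adjusted p up to 0.0516. It was also lost with centred log-ratios (-1.43, adjusted p = 0.0599), with the background covariate (-0.51, adjusted p = 0.755) and in the permutation test of mean log2 percent (-0.98, adjusted p = 0.249). Under LD8/16 the sites on antibiotics ran the other way without overlap. There the cecum libraries were at 0.273% to 0.698% and the colon libraries at 0 to 0.00756%.

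On antibiotics 4 of 7 tested variants differed between the sites, where 47% of all variants did, 31.3% higher and 15.7% lower in the cecum. Bif1 was lower in the cecum by -5.24 ± 0.97 (edgeR adjusted p = 6.05e-06), with 117 counts in the cecum and 3519 in the colon, and 24 colon libraries lay above every cecum library. Under LD8/16 Bif1 ran the other way, with 46 counts in 4 cecum libraries and at most 0.00303% of a colon library. Bif6, Bif7 and Bif9 were higher, since none had a count in the colon on antibiotics. They had enough counts to test only through the cecum, so a call could only be in the higher direction. With 204, 72 and 136 counts in the cecum, they were at least 61.5-fold, 21.7-fold and 41.0-fold higher there (adjusted p = 1.81e-04, 9.90e-04 and 6.50e-04). Bif2 did not pass (-0.44 ± 0.65, adjusted p = 0.676), though 8 cecum libraries lay above every colon library. Bif3 (1.61 ± 1.29, adjusted p = 0.370) and Bif8 (-1.03 ± 0.61, adjusted p = 0.185) did not pass.

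On chow 2 of 7 tested variants differed between the sites, where 26.1% of all variants did and 17% were lower in the cecum. Bif5 and Bif8 had no count in the chow cecum, against 362 and 89 in the colon, and were at least 132 and 32.4 times lower in the cecum (edgeR adjusted p = 1.54e-04 and 5.83e-05). Both had enough counts to test only through the colon, so a call could only be in the lower direction. Bif11, which was too sparse to test, was counted in 4 chow cecum libraries and nowhere else, and Bif10 in 3 chow colon libraries and nowhere else. The 4 most counted variants and Bif7 did not pass, with adjusted p between 0.421 and 0.961.

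The light cycles were then compared within each site and diet. Ordered by median, the groups ran from 0.423% under LD12/12 in the colon on antibiotics, through 0.339% under LD0/24 in the colon and 0.303% under LD8/16 in the cecum on antibiotics, to 0 under LD8/16 in the colon on antibiotics and under LD16/8 in the colon on chow. The range of each group overlapped that of the next in this order.

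LD8/16 nearly lacked the genus in the colon on antibiotics. The values under LD8/16 were 0, 0, 0, 0.00756% and 0, where the single positive library held 2 Bif1 and 3 Bif3 counts and its 95% Wilson interval was 0.00323% to 0.0177%. The lowest, median and highest libraries were 0.264%, 0.339% and 0.419% under LD0/24, 0.341%, 0.423% and 3.04% under LD12/12, 0.210%, 0.289% and 0.392% under LD16/8, and 0.288%, 0.295% and 0.346% under LD24/0. All 24 libraries of the other light cycles lay above all 5 of LD8/16. The light cycles differed (edgeR adjusted p = 4.68e-07), where 31.9% of 144 genera did.

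Against LD12/12, LD8/16 was lower by a log2 fold change of -9.04 ± 0.88 (edgeR adjusted p = 9.95e-09), where 8.33% of genera passed, 2.78% higher and 5.56% lower. Its libraries did not overlap those of LD12/12, as was the case, in the lower direction, for 6.25% of genera. The size of this fold rests on the 5 counts of 1 library. Without that library, replicate 4 of LD8/16, the group was at 0 throughout and the fitted value, which then has no fixed size, was -12.17, and without replicate 1 of LD12/12 it was -8.17. LD24/0 was lower by -1.59 ± 0.56 (adjusted p = 0.0487, where 17.4% of genera passed), but this call was lost in 20 of 29 fits that left out 1 library. LD0/24 (-1.46 ± 0.56, adjusted p = 0.0626) and LD16/8 (-1.69 ± 0.56, adjusted p = 0.150) did not pass, where 13.2% and 0.694% of genera did, and both passed without replicate 4 of LD8/16 (lowest adjusted p of 0.0210 and 0.0154). The 2 LD12/12 libraries with Bif3 blooms, at 3.04% and 0.979%, raised the mean of that group, and all 3 of these contrasts shared it.

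All 3 variants tested in the colon on antibiotics differed between light cycles, where 29.4% of all variants did. Bif2 (edgeR adjusted p = 2.93e-08) was at 0.0516% to 0.142% in every library of the other 4 light cycles and had no count under LD8/16. Bif1 (adjusted p = 5.21e-07) was at 0.146% to 0.326% in those 24 libraries and at most 0.00303% under LD8/16. Bif3 (adjusted p = 8.56e-04) was counted in 5 of 6 LD12/12 libraries and in 1 library each of LD8/16, LD16/8 and LD24/0. It met the count filter only with LD12/12 libraries, which favoured a call. The background genera made up 3.08% to 3.34% of counts under LD8/16 in this site and diet, and 3.01% to 3.43% under LD12/12.

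Chow libraries of the colon ranged, as lowest, median and highest, from 0, 0.0208% and 1.22% under LD0/24 and 0.0468%, 0.0605% and 0.272% under LD8/16 to 0.175%, 0.225% and 0.448% under LD12/12. They were at 0, 0 and 0.0170% under LD16/8 and at 0, 0.0202% and 0.0926% under LD24/0. LD12/12 libraries were all above those of LD16/8 and LD24/0 and overlapped those of LD0/24 and LD8/16. The light cycles differed (edgeR adjusted p = 0.0166, or 0.0284 without the library lacking background genera), where 22.1% of 222 genera did.

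Of the 4 contrasts in the colon on chow, 1 passed. LD16/8 was lower than LD12/12 by -5.85 ± 1.54 (edgeR adjusted p = 0.0246), where 3.6% of genera passed and 4.95% did not overlap in the lower direction. The call was lost without any 1 of replicates 2 to 5 of LD16/8 (adjusted p up to 0.0702). LD24/0 (-3.18 ± 1.35, adjusted p = 0.111) did not pass although its libraries did not overlap those of LD12/12, as for 12.2% of genera, where 18% passed, 4.05% higher and 14% lower. Without the library lacking background genera LD24/0 was at -2.93 (adjusted p = 0.204) and LD16/8 kept its call (adjusted p = 0.0297). LD8/16 (-1.19 ± 1.26) and LD0/24 (-0.02 ± 1.24) did not pass either (adjusted p = 1 each, where 0 and 1.8% of genera did, the LD0/24 calls being 0.901% higher and 0.901% lower), and without the library at 1.22% the LD0/24 value was -1.94.

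The variants of the colon on chow showed a split inside LD8/16. 4 of 6 tested variants differed between light cycles, where 16.5% of all variants did. Bif1 and Bif5 (edgeR adjusted p = 0.0052 each) were counted in all 6 LD12/12 libraries and in replicates 1 and 2 of LD8/16, and in no other chow colon library. In these 8 libraries Bif1 had 40 to 60 counts, Bif5 32 to 60 and Bif2 15 to 39. Bif1 and Bif5 had enough counts to test only through these libraries, which favoured a call. Replicates 3 to 6 of LD8/16 instead held Bif2 and Bif8, at 17 to 22 and 9 to 18 counts. Bif2 (adjusted p = 0.0355) had no count under LD16/8, and Bif8 (adjusted p = 0.0399) had none under LD12/12 or LD16/8. Bif4 (adjusted p = 0.105) and Bif3 (adjusted p = 0.159) did not pass.

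LD8/16 was the high group of the cecum on antibiotics. The lowest, median and highest libraries were 0.0279%, 0.0843% and 0.335% under LD0/24, 0.273%, 0.303% and 0.698% under LD8/16, and 0.00867%, 0.0150% and 0.110% under LD12/12. They were 0.0119%, 0.0903% and 0.103% under LD16/8 and 0, 0.0967% and 0.200% under LD24/0. All 6 LD8/16 libraries lay above all 6 of LD12/12, as for 7.59% of 158 genera in the higher direction. The light cycles differed (edgeR adjusted p = 0.0175, or 0.00243 without the 2 libraries lacking background genera), where 17.7% of genera did, and the call was lost without replicate 4 of LD8/16 (adjusted p = 0.0692).

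LD8/16 was higher than LD12/12 in the cecum on antibiotics by 3.55 ± 0.93 (edgeR adjusted p = 0.0122, or 8.49e-04 without the 2 libraries), where 8.86% of genera passed and 6.96% were higher. LD0/24 (2.27 ± 0.88, adjusted p = 0.136, where 1.27% of genera passed), LD16/8 (1.15 ± 0.86, adjusted p = 0.750) and LD24/0 (1.49 ± 0.86, adjusted p = 0.275) did not pass. Without the 2 LD24/0 libraries at 0, LD0/24 (adjusted p = 0.0280) and LD24/0 (2.08, adjusted p = 0.0424) did.

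The variant bands of the cecum on antibiotics ran across light cycle labels. 4 of 6 tested variants differed between light cycles, where 33.8% of all variants did. Bif9 (edgeR adjusted p = 0.00187) and Bif7 (adjusted p = 0.00374) were counted only under LD8/16 and in replicates 5 and 6 of LD0/24, where Bif2 was also high, at 145 to 204 counts. Bif6 (adjusted p = 0.00124) was counted at 15 to 42 in each of replicates 3 to 6 of LD16/8 and replicates 1 to 4 of LD24/0, and in no other library of this site and diet. Bif2 (adjusted p = 0.0131) had 29 to 55 counts in those 8 libraries and 6 to 11 in all 6 LD12/12 libraries and replicates 1 and 2 of LD16/8. Bif1 (adjusted p = 0.192) and Bif3 (adjusted p = 0.265) did not pass. Bif6, Bif7 and Bif9 had enough counts to test only through the light cycles where they were counted, which favoured a call for these variants.

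In the cecum on chow the test between light cycles did not pass for the genus (edgeR adjusted p = 0.357), where 15.7% of 185 genera did. The lowest, median and highest libraries were 0, 0.00672% and 0.0515% under LD0/24, 0.0970%, 0.133% and 0.887% under LD8/16, and 0, 0.0211% and 0.569% under LD12/12. They were 0, 0.00646% and 0.221% under LD16/8 and 0, 0.0257% and 0.720% under LD24/0. The range of LD12/12 overlapped those of the other 4 light cycles, and each group had 1 library far above the others.

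Bif1 was the only 1 of 4 tested variants to differ between light cycles in the cecum on chow (edgeR adjusted p = 7.85e-04, where 19% of all variants passed). It was counted in all 7 LD8/16 libraries and in 2 LD12/12 libraries. Bif1 thus met the count filter here only with LD8/16 libraries, which favoured a call. In 5 of the LD8/16 libraries it had 44 to 63 counts beside 22 to 52 of Bif2. The background genera were at most 0.0574% of counts there. Replicate 7 held 263 Bif1, 74 Bif2, 81 Bif4 and 86 Bif6 counts, the highest Bif1 and Bif6 counts of the series.

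The opposite position of LD8/16 in cecum and colon on antibiotics was tested as an interaction, chosen after the values were seen. Light cycle effects differed between the sites on antibiotics (edgeR adjusted p = 1.56e-08, where 11.6% of genera passed), and for LD8/16 against LD12/12 the cecum effect exceeded the colon effect by 12.60 ± 1.44 on the log2 scale (adjusted p = 2.61e-10, where 2.79% passed), a size that rests on the same 5 colon counts. LD0/24 (3.73, adjusted p = 0.0587), LD24/0 (3.09, adjusted p = 0.0669) and LD16/8 (2.84, adjusted p = 0.161) ran in the same direction and did not pass, where 1.4%, 6.98% and 0 of genera did. Without the 2 cecum libraries lacking background genera, LD0/24 (3.73, adjusted p = 0.0069) and LD24/0 (3.67, adjusted p = 0.00527) passed too, and LD16/8 did not (adjusted p = 0.0869). On chow the same test gave an adjusted p of 0.0510, where 16.9% of genera passed. Between diets in the colon, light cycle effects differed (adjusted p = 4.11e-05, where 11.6% passed), and the LD8/16 effect on antibiotics was below that on chow by -7.86 ± 1.75 (adjusted p = 0.0081, where 2.33% passed). Between diets in the cecum they did not pass (adjusted p = 0.261, where 11% did).

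Libraries were grouped by the shares of 76 variants of the 10 background genera, a measure that holds no Bifidobacterium, into 12 sets of 3 to 8 libraries, numbered S1 to S12. The sets placed 86 libraries and left 34 unplaced, among them all 31 of the cecum on chow. The labels hold no such sets, which come from the counts. 1 group filled a set of its own, LD8/16 of the colon on antibiotics, which was S8, and the other 11 sets crossed groups, 2 of them diets and 1 of them sites.

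Within sets, evenness was measured as the chi-square of a variant's counts over its degrees of freedom, which counting error alone would put at 1, in each set with at least 20 counts of the variant. For Bif2 it was 0.566 to 2.51 in 9 of 10 sets and 21.6 in S5. For Bif1 it was 1.29 to 2.45 in 4 of 7 sets, those where every library held it, and 4.69 in S10, 6.61 in S12 and 45.7 in S5. Bif8 had 1.296 in S4, 5.43 in S1 and 9.47 in S9. Within the labelled groups the same measure ran from 1.28 to 100.3 for Bif1 and from 0.708 to 97.1 for Bif2. The highest values were in LD8/16 of the cecum on chow for Bif1, where no library was placed in a set, and LD0/24 of the cecum on antibiotics for Bif2. Outside the cecum on chow the highest Bif1 value within a group was 46.6, in LD8/16 of the colon on chow. That is close to the 45.7 of Bif1 within S5. Bif3 and Bif4, both concentrated, were mostly less even within sets. Bif3 had 25.7 to 1275 in 6 sets and Bif4 had 41.0 to 555 in 3 sets. No set held either in all its libraries. Bif6, also concentrated, had 4.20 in S12, where all 8 libraries held 15 to 42 counts. The classes were themselves defined by how far counts lay in few libraries, so these differences are a description. In set S4, which joined replicates 3 to 6 of LD8/16 in the colon on chow with replicates 1 to 4 of LD0/24 in the cecum on antibiotics, all 8 libraries held 11 to 25 Bif2 and 8 to 20 Bif8 counts. All 204 Bif6 counts of the cecum on antibiotics lay in S12, and all 72 Bif7 counts there in S10. All 362 Bif5 counts of the colon on chow lay in S3. The calls of these variants thus rest largely on 1 set each, and the part of the sets in them was not tested.

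Set S5 was the 1 set with both diets in the colon. Its 6 colon libraries on antibiotics, of LD0/24 and LD16/8, held 96 to 162 Bif1 and 42 to 83 Bif2 counts, while its 2 colon libraries on chow, replicates 1 and 2 of LD24/0, held none of either. With sets as a block, an alternative chosen after the values were seen, the diet difference in the colon was -0.07 (edgeR adjusted p = 1). That fit compares the diets within sets only in S5, so it rests on these 2 chow libraries, whose light cycle no antibiotics library of the set shares. The light cycle tests that could be fitted did not pass, with adjusted p of 1 in the colon on antibiotics, 0.420 in the colon on chow and 0.837 in the cecum on antibiotics. They leave out LD8/16 on antibiotics at both sites and LD24/0 in the colon on chow, which could not be estimated beside the sets, and so both LD8/16 contrasts called above. Where a group fills its own sets, its light cycle and its set cannot be told apart, as for LD8/16 in the colon on antibiotics.

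**Figure D5:**
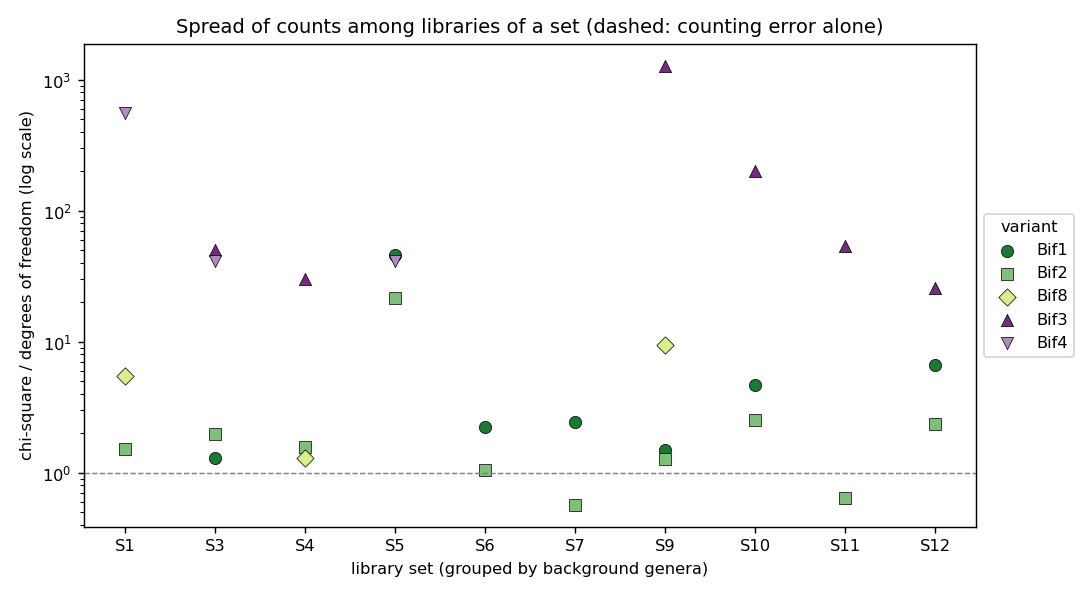
Chi-square over degrees of freedom (log axis) of the counts of 5 variants among the libraries of each of 10 library sets in which any was measured, with a dashed line at the value of counting error alone. Bif1 and Bif2 lie between 0.566 and 2.51, apart from both in S5 and Bif1 in S10 and S12, Bif8 lies between 1.296 and 9.47, and Bif3 and Bif4 lie between 25.7 and 1275.

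No difference between groups in the number of Bifidobacterium variants per library passed after adjustment with all libraries. At a common depth of 39157 counts, libraries held 2.49 ± 1.28 variants in the cecum on antibiotics and 1.82 ± 1.63 in the cecum on chow (SD, n = 30 and 31). The difference, taken within light cycles, was 0.729 (two-sided permutation test, 100000 resamples, p = 0.0300, adjusted p = 0.120 over 4 comparisons). In the colon they held 2.20 ± 1.24 on antibiotics and 2.26 ± 1.87 on chow (adjusted p = 0.732). Without the 2 cecum libraries lacking background genera the cecum difference was 0.945 and passed (adjusted p = 0.0242). Cecum minus colon was 0.356 on antibiotics and -0.495 on chow (adjusted p = 0.409 each).

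Other genera with a like pattern were ranked by Spearman's rho over libraries, among 179 genera counted in at least 30 of them. These are descriptions, since the points share groups, sets and the closure of shares to a fixed total. Over all 120 libraries the most like genera were Escherichia (0.51), Subdoligranulum (0.49), Weissella (0.49), Escherichia-Shigella (0.44) and Agathobacter (0.43). For the summed spread variants they were Escherichia (0.60), Weissella (0.56), Enterobacter (0.54), Klebsiella (0.52) and Subdoligranulum (0.52). Weissella is 1 of the 10 background genera.

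Within a site and diet the like genera differed. In the cecum on antibiotics they were Romboutsia (0.80), Porphyromonas (0.76) and Coprococcus (0.76) over 30 libraries, and in the cecum on chow Lactobacillus (0.53), the Ruminococcus gnavus group (0.52) and Dubosiella (0.50) over 31. In the colon on antibiotics they were Subdoligranulum (0.84), Monoglobus (0.58) and the Ruminococcus gnavus group (0.58) over 29, and in the colon on chow Coriobacteriaceae UCG-002 (0.70), Collinsella (0.67) and Dubosiella (0.63) over 30, of which the first and second are, like Bifidobacterium, Actinobacteriota.

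Lists of related genera set the genus beside its metabolic neighbours. Of other Actinobacteriota, the phylum of Bifidobacterium, 8 of 9 tested genera passed in the colon and all 8 were lower on antibiotics, where 81% of all genera passed and 64.3% were lower, with a median log2 fold change of -4.66 against -3.62 over all genera. With TMMwsp factors 7 were lower and 1 higher there. In the cecum 7 of 8 passed, 3 higher, 1 of them the background genus Actinomyces, and 4 lower, where 91.4% of all genera did, 33.3% higher and 58% lower (median -3.12 against -2.87). Enterorhabdus and Adlercreutzia, gut Eggerthellaceae, were lower on antibiotics at both sites, by -9.00 ± 0.65 and -5.03 ± 0.94 in the cecum (edgeR adjusted p = 2.24e-20 and 7.55e-06) and by -7.68 ± 0.59 and -4.05 ± 0.86 in the colon (adjusted p = 1.67e-18 and 8.92e-05). Rothia, an oral and skin genus, was higher in the cecum (6.28 ± 0.73, adjusted p = 6.56e-12) and lower in the colon (-3.19 ± 0.84, adjusted p = 4.77e-04), where the call was lost with TMMwsp factors (-1.17, adjusted p = 0.199).

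Lactic acid bacteria, which share lactate as an end product, divided. In the cecum 8 of 8 tested genera passed, 6 higher and 2 lower on antibiotics (median 2.97), where 91.4% of all genera passed and 33.3% were higher. In the colon 11 of 12 passed, 7 higher and 4 lower (median 2.47, or 8 higher and 3 lower with TMMwsp factors), where 81% of all genera passed and 16.7% were higher. Pediococcus did not pass, at -0.57 (edgeR adjusted p = 0.0625), but passed as lower without the chow library lacking background genera (-0.61, adjusted p = 0.0112). With TMMwsp factors it changed direction and passed as higher (1.59, adjusted p = 5.86e-06). Streptococcus, called lower in the colon (-1.55, adjusted p = 4.42e-05), also changed direction with TMMwsp factors and lost its call (0.48, adjusted p = 0.138). Lactobacillus and Ligilactobacillus, residents of the rodent gut, were the 2 lower genera of the cecum, by -4.18 ± 0.46 and -5.30 ± 0.40 (edgeR adjusted p = 8.55e-13 and 4.11e-19), and were lower in the colon too, by -4.28 ± 0.38 and -5.57 ± 0.33 (adjusted p = 3.62e-16 and 5.16e-24). Of the higher genera, 4 of 6 in the cecum (Weissella, Lactiplantibacillus, Lentilactobacillus and Pediococcus) and 3 of 7 in the colon (the first 3 of these) belong to the background genera, whose mean summed share was also greater on antibiotics than on chow at both sites. Weissella, a fermenter of plant material, was higher by 2.08 ± 0.76 in the cecum and 2.79 ± 0.34 in the colon (adjusted p = 0.00841 and 3.23e-11), and Lactiplantibacillus by 3.18 ± 0.67 and 2.29 ± 0.34 (adjusted p = 1.78e-05 and 1.35e-08). The part of the background in the calls of the list was not tested. Between sites, 11 of 12 passed on antibiotics, 2 higher and 9 lower in cecal contents, 4 of these 9 being background genera, where 46% of all genera passed and 20% were lower. On chow 7 of 11 passed, all 7 lower and 4 of them background genera (6 lower and 1 higher with TMMwsp factors), where 43.4% passed and 29.8% were lower.

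Of the butyrate producers that can use bifidobacterial acetate and lactate, 4 of 6 tested genera were lower on antibiotics in the colon and none higher (median -3.85, or 4 lower and 1 higher with TMMwsp factors), a share near the 64.3% of all genera. In the cecum 4 of 6 were lower and 1 higher (median -3.53), again near the 58% and 33.3% of all genera. Anaerostipes, a lactate user, was lower by -6.57 ± 0.96 in the cecum and -4.07 ± 0.96 in the colon (edgeR adjusted p = 5.40e-08 and 1.12e-04). Roseburia, an acetate user, was lower by -3.71 ± 0.87 and -5.28 ± 0.84 (adjusted p = 7.55e-05 and 7.25e-08). Faecalibacterium was the 1 higher genus of the cecum (1.19 ± 0.54, adjusted p = 0.0354), a call lost without the 2 libraries lacking background genera (adjusted p = 0.0523). Between sites 2 of 6 passed on antibiotics and 1 of 6 on chow (3 and 2 with TMMwsp factors), where 46% and 43.4% of all genera did, and the chow call, Coprococcus, was lost without the library lacking background genera (adjusted p = 0.0551).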

How the data were processed

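Microbial DNA of cecal and colonic contents was extracted with a stool kit and read from PacBio SMRTbell libraries, per the labels' protocols. The authors deposited whole-number read counts for each amplicon sequence variant in each library, with no normalisation, and a taxonomy table from domain to species. Of the denoiser, primers, read filters and taxonomy database, none is named in the labels or headers, and the variants' sequences were not used here.

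Counts were taken as deposited and summed by genus. The robust quasi-likelihood test of edgeR 4.0.16 (R 4.3.3) was run on genera and on variants, taking each library's total as its size without a composition factor, for features with at least 3 counts in at least 5 libraries of a fit. A feature counted in under 5 libraries of 1 group met this filter only with libraries of the other. Benjamini-Hochberg adjustment covered all genera or all variants tested, and an adjusted p under 0.05 counted as a call. A standard error (SE) is the log2 fold change over the square root of its F statistic. Diets and sites were compared with light cycle as a factor. On simulated counts the variant fits called more unchanged variants than the threshold allows, so variant calls are given with their libraries' counts. Alternatives used DESeq2 1.42.0, limma 3.58.1 on centred log-ratios, TMMwsp factors, other count filters, permutations and a background covariate. Own code ran in Python 3.11.15 with numpy 2.4.6, pandas 2.3.3, scipy 1.17.1 and matplotlib 3.10.9.

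Variants named are the 10 most counted, those reaching 0.1% of a library and those called. The genus, the classes and the lists were chosen with earlier results of these data known. No 2 libraries were copies of each other among 301 replicate pairs. Groups share replicate numbers, but in only 36 of 213 same-numbered pairs did deviations correlate above 0.1, so the numbers were not used to pair libraries.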

Additional observations from a re-analysis of the deposited data

Results flagged for a closer look

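In 11 of the 20 groups, 1 library passed Dixon's test for a value far above the rest of its group in percent of Bifidobacterium. Chance flags about 1 group in 20 where values are normally distributed. These percents are skewed and hold many zeros, and the chance rate for them was not measured, so 11 of 20 cannot be set against it. In the cecum on antibiotics these were replicate 4 of LD8/16, at 0.698%, with 188 Bif3 counts, and replicate 5 of LD12/12, at 0.110%, with 58. In the colon on antibiotics they were replicate 1 of LD12/12, at 3.04% with 1589 Bif3 counts, and replicate 4 of LD8/16, whose 5 counts (0.00756%) were the only ones of its group. With the rest of a group at 0 the test passes whatever the count, and the Wilson interval of that library reached down to 0.00323%, below the 0.00536% that a count of 0 allowed in its group, so it was not shown to lie above the others.

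On chow all 5 groups of the cecum had such a library. They were replicate 2 of LD0/24 (0.0515%, Bif4 and Bif11), replicate 7 of LD8/16 (0.887%, led by Bif1), replicate 1 of LD12/12 (0.569%, led by Bif3), replicate 6 of LD16/8 (0.221%, led by Bif2 and Bif11) and replicate 1 of LD24/0 (0.720%, led by Bif4). In the colon on chow they were replicate 4 of LD0/24 (1.22%, led by Bif4) and replicate 2 of LD24/0 (0.0926%, led by Bif4). A concentrated variant was the most counted in 8 of the 11 libraries, among them the library with 5 counts. The concentrated class was itself defined by high counts in few libraries, so this number is a description only.

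On antibiotics, light cycle effects on the genus differed between cecum and colon (edgeR adjusted p = 1.56e-08), by 12.60 for LD8/16 against LD12/12 on the log2 scale, a size that rests on 5 colon counts. In the colon they differed between the diets (edgeR adjusted p = 4.11e-05), by -7.86 for LD8/16.

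Outside the genus, 2 other Bifidobacteriaceae were counted. Parascardovia, which entered 1 test among the listed Actinobacteriota, passed as higher there, in the diet effect of the cecum minus that of the colon (3.95 ± 0.77 on the log2 scale, edgeR adjusted p = 2.33e-05, where 31.4% of genera were higher). It had at most 13 counts in a library, in replicate 2 of LD0/24 in the cecum on antibiotics. Gardnerella had 26 counts in replicate 7 of LD8/16 in the cecum on chow, the library that also held the most Bif1 and Bif6.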

How the results depend on the processing

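Each result under each other setting (leave-one-out aside) was counted as 1 case, so a result can enter many times. Of these cases, 208 kept their direction and their side of the threshold. A call was gained in 17 and lost in 11, 8 reversed, and in 2 a count moved by over 1.5 times. Where a result changed, the cause was not tested. Alternatives with library sets as a block and without the libraries lacking background genera were chosen after seeing the data. A count of 0 allowed a share of up to 0.00433% to 0.00766%. Sets as a block could not be fitted between sites, for diet in the cecum or in the cecum on chow.

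Diet results (log2, edgeR adjusted p). In the colon the background share as a covariate gave 1.69 (0.0634), and sets as a block -0.0737 (1), which rests on 2 chow libraries. In the cecum limma on centred log-ratios gave 1.97 (0.00300) and the background covariate -4.30 (0.00142), at a site where that share averaged 1.47% on antibiotics and 0.0270% on chow. The difference between sites in the diet effect was -4.50 (3.81e-05) with TMMwsp factors, -2.89 (0.0019) with DESeq2 and -5.93 (1.53e-04) with the covariate. With TMMwsp the colon diet effect was 3.98 (2.68e-05). TMMwsp moved the median of all genera by 1.31 for diet in the colon, 0.57 for diet in the cecum and -0.53 for site on antibiotics.

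Site results. On chow TMMwsp gave 2.21 (0.0435), DESeq2 1.80 (0.0195), the covariate 5.29 (0.0128) and the permutation test of mean log2 percent -0.27 (0.692). On antibiotics the call was lost with centred log-ratios (-1.43, 0.0599), the covariate (-0.51, 0.755) and permutation (-0.98, 0.249).

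Light cycle results. Sets as a block in the colon on antibiotics left no call for any light cycle (1), with LD8/16 not estimable, as in the cecum. DESeq2 called LD0/24 (-1.84, 0.0014) and LD16/8 (-1.53, 0.0436), and permutation LD16/8 (-1.18, 0.0173). LD24/0 lost its call with no count filter (-1.59, 0.0785), the replicate block (-1.27, 0.193) and the covariate (-1.34, 0.429). On chow in the colon sets as a block gave 0.420, LD0/24 turned to 0.39 (0.955) with TMMwsp and 0.0015 (1) with the covariate, and LD24/0 passed with DESeq2 (-3.36, 0.0165) and permutation (-4.07, 0.0115). In the cecum on antibiotics any light cycle lost its call with TMMwsp (0.0504) and sets as a block (0.837). LD0/24 passed with the covariate (2.33, 0.0303), permutation (2.33, 0.0495) and without the libraries lacking background genera (2.27, 0.0280), and LD24/0 with the covariate (2.35, 0.0291) and without those libraries (2.08, 0.0424). LD24/0 of the cecum on chow turned to -0.76 with centred log-ratios, -0.46 with the covariate and -0.38 by permutation, with adjusted p of 0.951, 0.954 and 0.892.

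Replicate numbers did not pair the libraries. With the replicate block the diet effect was 1.96 in the colon (edgeR adjusted p = 0.0297) and 0.89 in the cecum (0.232), the site effect -1.66 (0.0402) on antibiotics and 0.08 on chow, and the number of variants called between light cycles in the colon on chow was 2 against 4, with Bif2 (0.0759) and Bif8 (0.118) lost. Bif2 lost its call between light cycles in the cecum on antibiotics (0.0705), and Bif8 gained one for diet in the colon (0.0207). The genus call for LD24/0 in the colon on antibiotics was lost, as above. A stricter count filter left 1 of 2 variant calls between sites on chow.

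Leaving out 1 library at a time gave these lowest and highest values. Diet was 1.62 to 2.48 in the colon and 0.15 to 0.85 in the cecum, and site -0.10 (without replicate 1 of LD24/0 in the cecum) to 0.75 on chow and -1.81 to -1.53 on antibiotics. The adjusted p for any light cycle was 6.80e-11 to 4.05e-06 in the colon on antibiotics, 0.00766 to 0.0339 in the colon on chow, 0.00318 to 0.0692 in the cecum on antibiotics and 0.179 to 0.525 in the cecum on chow. LD0/24 in the colon on antibiotics was -1.64 to -0.59, LD8/16 -12.17 to -8.17, LD16/8 -1.86 to -0.82 and LD24/0 -1.77 to -0.72. The same 4 contrasts in the colon on chow were -1.94 to 0.24, -1.64 to -0.98, -6.98 to -5.60 and -4.00 to -2.93. For the cecum on antibiotics they were 1.86 to 3.29, 3.26 to 4.57, 0.96 to 2.17 and 1.06 to 2.51, and in the cecum on chow -4.40 to -1.86, 0.02 to 2.27, -3.35 to -0.09 and -2.49 to 1.46. The diet effect by site was not refitted in this way, since it would need 120 fits.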

Other observations

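Of the 51 libraries with a concentrated variant, replicate 5 of LD12/12 in the colon on chow held the widest mix, with 74 Bif3, 40 Bif4, 43 Bif7 and 31 Bif10 counts beside its Bif1, Bif2 and Bif5, and was the single library with 7 variants. Bif10 otherwise occurred in 2 libraries, replicates 3 and 4 of LD0/24 in the colon on chow, at 52 and 53 counts, and Bif7 stood at 33 and 21 counts in the same 2 libraries. The share of the background genera was ranked against that of Bifidobacterium over libraries as a description, since libraries share groups and totals. Spearman's rho was 0.31 over all 120 libraries, 0.33 in the cecum on antibiotics, 0.45 in the cecum on chow, 0.15 in the colon on antibiotics and -0.19 in the colon on chow.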
